A study of Homo sapiens with 16 samples.

Results

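The class II and class IV histone deacetylases are 7 of the 35993 genes in the count table, taken by their symbols. HDAC4, HDAC5, HDAC7 and HDAC9 form class IIa, HDAC6 and HDAC10 class IIb, and HDAC11 is the single member of class IV. Their transcripts were read in 16 RNA-seq libraries from the bladder cancer (BC) cell lines 253J, J82, RT112 and TCCSUP. In each cell line, 2 libraries came from cells given DMSO as vehicle (0.01%) and 2 from cells given CM-1758, an HDAC inhibitor, for 48 h at the dose that halved survival of that cell line (its IC50). The dose therefore differed between cell lines, as did the medium, which was EMEM for TCCSUP and DMEM for the other lines. The labels name every line as wild type for genotype. The comparison asks whether treatment with an HDAC inhibitor is accompanied by a change in the transcripts of these 7 genes. The libraries do not show whether CM-1758 inhibits these 7 enzymes.

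Histone deacetylases remove acetyl groups from lysines of histones and other proteins. Class IIa enzymes have weak catalytic activity of their own and act as signal-dependent repressors: they bind MEF2 transcription factors, recruit the NCOR/SMRT complex that contains HDAC3, and leave the nucleus when kinases of the CaMK, PKD, SIK and MARK families phosphorylate them and 14-3-3 proteins bind. HDAC6 is a mainly cytoplasmic deacetylase of alpha-tubulin, HDAC10 deacetylates polyamines, and HDAC11 removes fatty acyl groups from proteins such as SHMT2.

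All 7 genes passed the filter on low counts, which left 21297 genes tested. The response split class IIa: HDAC7 fell in all 4 cell lines, HDAC5 rose in 3, and HDAC9 rose in the 2 lines that held little of it. HDAC4 rose modestly in 2 lines. HDAC11 rose in the 2 lines with its lowest control level, HDAC6 fell in J82 and RT112, and HDAC10 fell in J82. Levels are given as CPM, read counts scaled to a common library size with TMM factors. Changes are log2 fold changes of CM-1758 over control with their standard errors (SE). The test was the quasi-likelihood test of edgeR, and a change is called where its Benjamini-Hochberg adjusted p is under 0.05. Because whole cultures were sequenced, fewer cells that carry a transcript and less of it per cell cannot be told apart.

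Total counts ran from 22506431 to 32537104 per library, and 3 counts are worth 0.0981 to 0.119 CPM. CDKN1A, which HDAC inhibitors commonly induce, rose in 253J, J82 and TCCSUP but was at 0.26 in RT112 (adjusted p = 0.411). TMM factors were 0.846 to 1.03 in controls and 0.937 to 1.13 in treated libraries. Of 15 urothelial markers, 8 to 14 had over 3 counts in both control libraries of a line, and KRT5 had no reads in 253J or J82. The summed urothelial level was lower with CM-1758 in 253J (3193 to 4344 against 1873 to 2360 CPM). It was also lower in RT112 (8237 to 8638 against 6290 to 7071) and TCCSUP (1339 to 1460 against 514 to 599), and overlapped in J82. Single urothelial markers did not all follow their sum. Of the 15, 3 were called higher and 4 lower in 253J, and 5 and 1 in J82. In RT112 1 was called higher and 5 lower, and in TCCSUP 4 and 6. The summed mesenchymal level was higher in J82 and RT112 and lower in 253J and TCCSUP, but single markers did not all follow the sum. Of the 4 mesenchymal markers, 0 were called higher and 1 lower in 253J, 2 and 1 in J82, 4 and 0 in RT112, and 1 and 2 in TCCSUP. VIM went against the sum in J82 (log2 fold change -0.98) and in TCCSUP (1.93). Summed over the 8 blood and endothelial markers, no library exceeded 22.0 CPM. PTPRC, a leukocyte marker, held 9.58 CPM in TCCSUP controls and 1.12 with CM-1758, and rose in J82 from 2 and 3 reads to 25 and 28. VWF, an endothelial marker, was called higher in TCCSUP (0.842 to 3.80 CPM) and 253J (0.172 to 1.92), and not in J82 or RT112.

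HDAC7, a class IIa repressor best known from developing thymocytes and the endothelium, had the most uniform control level of the 7 genes. The control libraries held 40.1 and 39.8 CPM in 253J, 36.7 and 35.7 in J82, 48.5 and 52.6 in RT112, and 42.9 and 42.8 in TCCSUP. The highest mean was 1.40-fold the lowest, and the test across all 4 lines did not pass (adjusted p = 0.0586), although J82 lay below RT112 when that pair was compared (adjusted p = 0.0179). With CM-1758 the libraries held 8.04 and 6.92 CPM in 253J, 13.4 and 9.65 in J82, 19.5 and 19.5 in RT112, and 7.22 and 9.44 in TCCSUP. Control and treated libraries were apart in every line, and the treated level was lowest in 253J and TCCSUP. The log2 fold change was -2.42 (SE 0.17) in 253J, -1.65 (SE 0.17) in J82, -1.38 (SE 0.16) in RT112 and -2.36 (SE 0.17) in TCCSUP, which is 5.34-fold, 3.14-fold, 2.60-fold and 5.14-fold lower. The adjusted p was 6.61e-08, 2.36e-06, 8.55e-06 and 6.46e-08 in that order. Of all genes tested, 6.01% were called lower in all 4 lines.

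The fall of HDAC7 differed in size between lines (adjusted p = 0.00272). The effects in 253J and TCCSUP were -0.06 apart (95% interval -0.56 to 0.45), and those in J82 and RT112 -0.28 apart (-0.76 to 0.21). Each of the first pair differed from each of the second, by -1.04 between 253J and RT112 at the most (adjusted p = 0.00318) and 0.71 between J82 and TCCSUP at the least (adjusted p = 0.0402). In the GENCODE v29 annotation HDAC7 overlaps SLC48A1, a heme transporter gene on the opposite strand, and the strand setting of the counting is not given in the sources used here. SLC48A1 changed by -0.95 (adjusted p = 0.000925) in 253J, by 0.38 and 0.35 in J82 and RT112 (adjusted p = 0.135 and 0.157) and by -0.44 in TCCSUP (adjusted p = 0.0746), so it was lower with HDAC7 in 253J and its estimate was above 0 in J82 and RT112.

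HDAC5, a class IIa repressor of heart and muscle growth programs, moved the opposite way. The control libraries held 5.90 and 9.58 CPM in 253J, 13.98 and 13.6 in J82, 12.5 and 7.66 in RT112, and 21.1 and 25.3 in TCCSUP. The treated libraries held 61.4 and 54.1 CPM in 253J, 35.3 and 54.0 in J82, 24.4 and 21.8 in RT112, and 37.1 and 30.5 in TCCSUP. No treated library fell within the control range of its line. The log2 fold change was 2.90 (SE 0.27, 7.46-fold, adjusted p = 6.25e-07) in 253J, 1.70 (SE 0.26, 3.24-fold, adjusted p = 9.38e-05) in J82 and 1.19 (SE 0.26, 2.29-fold, adjusted p = 0.00153) in RT112. In TCCSUP it was 0.54 (SE 0.25, adjusted p = 0.0784), which did not pass. It passed under 5 of 13 alternatives, among them TCCSUP fitted alone (adjusted p = 0.00711). Over the 13 the value in TCCSUP ran from 0.39 to 0.85.

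Before treatment, HDAC5 was highest in TCCSUP and lowest in 253J, 2.99-fold apart. TCCSUP differed from the other 3 lines and J82 from 253J, whereas J82 and RT112 (adjusted p = 0.168) and RT112 and 253J (adjusted p = 0.245) did not differ beyond their spread. After treatment 253J was the highest and RT112 the lowest, 2.50-fold apart. The effect differed between lines (adjusted p = 0.000518), by 2.36 on the log2 scale between 253J and TCCSUP (95% interval 1.59 to 3.13, adjusted p = 0.000188).

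HDAC9, a class IIa gene with known splice forms that lack the catalytic domain, had by far the widest range. The control libraries held 58.4 and 59.8 CPM in 253J and 60.6 and 69.4 in TCCSUP. They held 4.33 and 3.13 CPM in J82 and 0.752 and 0.474 in RT112, which in RT112 is 23 and 14 reads. TCCSUP was thus 106-fold above RT112. The neighbours 253J and TCCSUP did not differ beyond their spread (log2 difference -0.14, 95% interval -0.49 to 0.22, adjusted p = 0.532), and every other pair of lines did. Control level differed between the 4 lines in 78.8% of all genes tested.

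With CM-1758, HDAC9 reached 12.6 and 12.7 CPM in RT112 and 9.49 and 8.26 in J82, all above the control libraries of their line. In 253J it held 65.3 and 59.3 CPM and in TCCSUP 64.8 and 84.8, in both cases overlapping the controls. The log2 fold change was 4.35 (SE 0.25, 20.4-fold, adjusted p = 1.01e-08) in RT112 and 1.25 (SE 0.20, 2.38-fold, adjusted p = 0.000131) in J82. It was 0.08 (95% interval -0.28 to 0.43, adjusted p = 0.763) in 253J and 0.20 (-0.15 to 0.56, adjusted p = 0.322) in TCCSUP. The difference between lines (adjusted p = 2.16e-07) held for every pair except 253J and TCCSUP. The span across lines fell to 8.43-fold, and RT112 passed J82, above which it then lay by 0.51 on the log2 scale (adjusted p = 0.0274). In RT112 all 4 mesenchymal markers listed (VIM, CDH2, FN1 and ZEB1) rose as well, among them VIM by 4.23 (adjusted p = 8.05e-07) and ZEB1 by 3.45 (adjusted p = 9.07e-07), and their part in the HDAC9 result was not tested.

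RefSeq promoter windows, each with 250 bases before and 50 after a transcript start, were found for 6 of the 7 genes, 16 windows in all (GRCh38.p14). The MEF2 consensus, a palindrome read on both strands at once, was in 1 of these windows, that of the most upstream HDAC9 start, and in 2.99% of all 35116 windows. Its form there, CTATTTTTAG, was on either strand of 0.142% of all windows. The match begins 8 bases before the start and runs across it. The window is 75.0% G and C, against 58.7% for the median window and 40% to 49.3% for the other 4 HDAC9 windows. The window of HDAC7, the gene that fell in every line, holds neither this motif nor a GC box (GGGCGG on either strand, in 45.0% of all windows). The single HDAC11 window holds 5 GC boxes, of which the last 3 overlap. The sequences before the start, for HDAC9 up to the end of the match, are shown for HDAC9 because it holds the match, for HDAC7 because it fell in every line, and for HDAC11 because it is the single class IV gene. HDAC5 had no window in the table used. The MEF2 match is in capitals in HDAC9, where GC boxes are left in lower case, and the GC boxes are in capitals in HDAC11, and HDAC7 has no capitals because it has neither. A match in letters is not a binding site, and the libraries do not show which start was used.
HDAC9, chr7:18086575-18086826, plus strand: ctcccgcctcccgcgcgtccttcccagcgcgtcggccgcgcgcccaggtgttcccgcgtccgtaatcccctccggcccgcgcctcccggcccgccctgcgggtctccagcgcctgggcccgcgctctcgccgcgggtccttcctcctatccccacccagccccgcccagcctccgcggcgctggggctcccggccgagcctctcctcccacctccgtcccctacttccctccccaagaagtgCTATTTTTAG
HDAC7, chr12:47819904-47820153, minus strand: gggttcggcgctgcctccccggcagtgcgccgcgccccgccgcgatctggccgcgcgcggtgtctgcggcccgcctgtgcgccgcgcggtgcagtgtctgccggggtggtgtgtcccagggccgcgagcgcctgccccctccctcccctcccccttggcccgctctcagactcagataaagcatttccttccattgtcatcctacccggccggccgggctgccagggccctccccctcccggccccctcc
HDAC11, chr3:13480056-13480305, plus strand: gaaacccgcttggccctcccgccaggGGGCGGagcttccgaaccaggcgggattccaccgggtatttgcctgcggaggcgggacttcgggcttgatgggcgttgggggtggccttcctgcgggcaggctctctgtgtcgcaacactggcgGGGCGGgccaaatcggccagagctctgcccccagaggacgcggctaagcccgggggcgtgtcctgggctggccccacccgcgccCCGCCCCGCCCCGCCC

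HDAC4, the class IIa repressor known for restraining chondrocyte maturation, had the smallest change among the class IIa genes on average over the 4 lines, with a mean log2 fold change of 0.47. The control libraries held 8.26 and 11.0 CPM in 253J, 10.3 and 8.18 in J82, 19.9 and 22.4 in RT112, and 13.7 and 15.4 in TCCSUP. The treated libraries held 13.2 and 11.9, 14.6 and 14.3, 27.8 and 27.1, and 21.0 and 19.4 CPM in the same order of lines. The treated libraries were above the controls in every line, but only J82 (log2 fold change 0.65, SE 0.17, adjusted p = 0.00654) and TCCSUP (0.47, SE 0.17, adjusted p = 0.0271) passed the test. The values in 253J (0.38, SE 0.17, adjusted p = 0.0772) and RT112 (0.38, SE 0.16, adjusted p = 0.0727) did not, but passed under 4 and 5 of 13 alternatives. Both calls are fragile: that in TCCSUP was lost without either CM-1758 library or without control replicate 1 (adjusted p from 0.0532 to 0.157), and that in J82 without control replicate 3 (adjusted p = 0.0639). A difference in effect between lines was not shown (adjusted p = 0.723), and the largest gap between 2 lines was 0.27 (95% interval -0.23 to 0.78), between J82 and RT112. In the controls RT112 stood above TCCSUP, and TCCSUP above 253J and J82, which did not differ beyond their spread (adjusted p = 0.839).

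HDAC6, the tubulin deacetylase of class IIb, was called lower in J82 and RT112. Its control libraries held 54.6 and 63.3 CPM in 253J, 62.3 and 59.2 in J82, 57.7 and 63.0 in RT112, and 34.9 and 38.1 in TCCSUP. TCCSUP lay below the other 3 lines (adjusted p from 0.000136 to 0.000209), which did not differ from each other beyond their spread. With CM-1758 the libraries held 61.0 and 65.7 CPM in 253J, 37.5 and 35.2 in J82, 42.8 and 41.3 in RT112, and 31.0 and 30.2 in TCCSUP. The treated libraries lay below the controls in all but 253J, where they overlapped. The log2 fold change was -0.74 (SE 0.12, adjusted p = 0.000208) in J82 and -0.52 (SE 0.12, adjusted p = 0.00269) in RT112. It was -0.25 (SE 0.12, adjusted p = 0.0967) in TCCSUP and 0.10 (95% interval -0.16 to 0.36, adjusted p = 0.516) in 253J. The effect differed between lines (adjusted p = 0.00436), and in pairs 253J differed from J82 and from RT112.

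HDAC10, the polyamine deacetylase of class IIb, was called in J82 alone, where it fell. There the control libraries held 9.31 and 6.87 CPM and the treated ones 5.48 and 4.06, without overlap, a log2 fold change of -0.76 (SE 0.21, adjusted p = 0.00963). In 253J the values were 11.6 and 13.9 CPM in controls and 12.1 and 12.8 with CM-1758, in RT112 15.01 and 18.1 against 17.3 and 18.4, and in TCCSUP 7.64 and 6.43 against 7.49 and 8.38. The libraries overlapped in these 3 lines, with log2 fold changes from -0.03 to 0.17. Control levels ran from 7.04 CPM in TCCSUP to 16.6 in RT112, and neither TCCSUP and J82 (adjusted p = 0.474) nor 253J and RT112 (adjusted p = 0.130) differed beyond their spread. The J82 call was lost without control replicate 1 (adjusted p = 0.0972) or CM-1758 replicate 3 (adjusted p = 0.103). The difference between lines (adjusted p = 0.0495) was at the threshold, and 14 of the 16 fits that each left out 1 library did not pass it, with adjusted p from 0.02 to 0.226. In GENCODE v29 HDAC10 overlaps MAPK12, a p38 family kinase gene on the same strand, so reads of the shared stretch cannot be assigned without knowing the counting rule. MAPK12 fell in all 4 lines, by -0.74 in J82 (adjusted p = 0.00598) and by -2.28 in 253J (adjusted p = 3.3e-07), where HDAC10 had a log2 fold change of -0.03. Its part in the HDAC10 value was not tested.

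HDAC11, the class IV enzyme, was called higher in the 2 lines where its control level was lowest. The control libraries held 6.45 and 5.78 CPM in 253J and 4.16 and 3.64 in TCCSUP, and 27.6 and 30.5 in J82 and 24.2 and 18.8 in RT112. The means of J82 and TCCSUP were 7.45-fold apart. Every pair of lines passed the test but J82 and RT112, which narrowly missed the threshold (log2 difference 0.43, 95% interval 0.06 to 0.81, adjusted p = 0.0521). With CM-1758 the libraries held 14.7 and 12.8 CPM in 253J and 13.7 and 11.9 in TCCSUP, well above their controls. They held 24.2 and 25.0 CPM in J82, below the controls, and 29.6 and 21.5 in RT112, overlapping them.

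The log2 fold change of HDAC11 was 1.17 (SE 0.19, 2.24-fold, adjusted p = 0.000114) in 253J and 1.71 (SE 0.20, 3.28-fold, adjusted p = 5.12e-06) in TCCSUP. It was -0.24 (95% interval -0.62 to 0.14, adjusted p = 0.298) in J82 and 0.25 (-0.13 to 0.62, adjusted p = 0.270) in RT112. The effects differed between lines (adjusted p = 8.96e-05): each of 253J and TCCSUP differed from each of J82 and RT112. Within these pairs no difference was shown, at -0.55 between 253J and TCCSUP (95% interval -1.13 to 0.03) and -0.49 between J82 and RT112 (-1.02 to 0.05). The span of the means fell to 2.00-fold with treatment, and 253J and TCCSUP then held levels 0.10 apart on the log2 scale (adjusted p = 0.666).

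**Figure D1:**
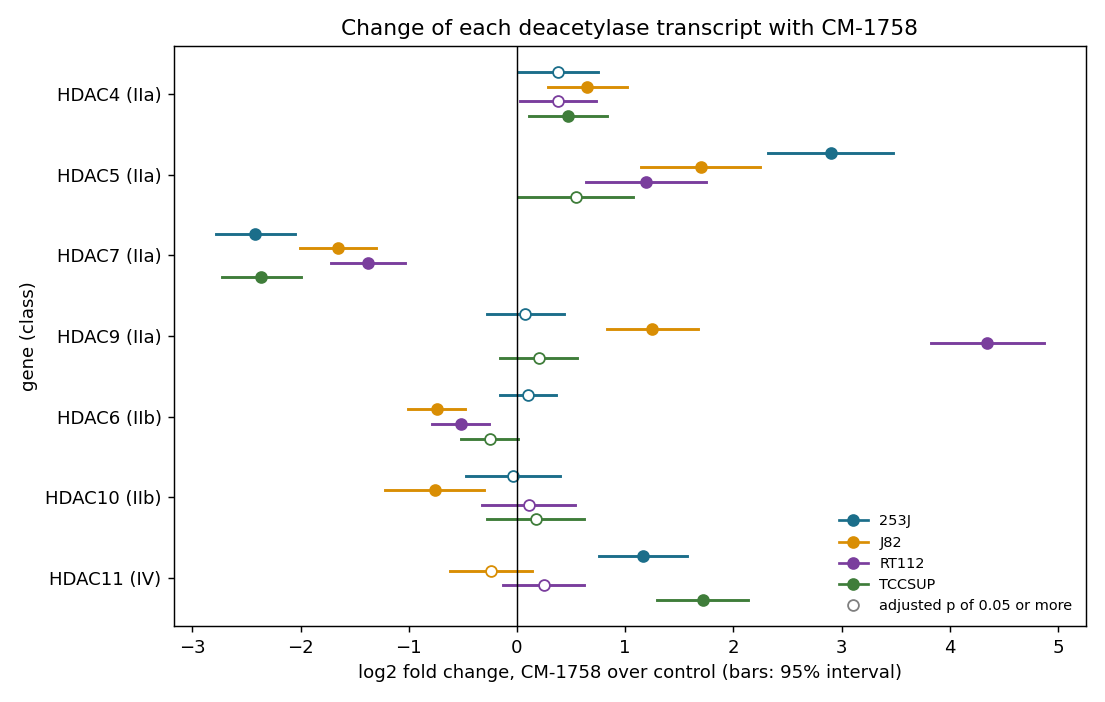
Log2 fold change of CM-1758 over control for each gene and cell line, with bars for the 95% interval; filled points have an adjusted p under 0.05 and open points do not. HDAC7 lies left of 0 in all 4 lines (-2.42 to -1.38), HDAC5 right of it (0.54 to 2.90), and HDAC9 runs from 0.08 in 253J to 4.35 in RT112.

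By cell line, 3 of 7 members were called in 253J (2 higher, 1 lower), 6 in J82 (3 higher, 3 lower), 4 in RT112 (2 higher, 2 lower) and 3 in TCCSUP (2 higher, 1 lower). Of all genes tested, 51.3% were called in 253J (28.8% higher, 22.4% lower), 42.5% in J82 (24.0% and 18.5%), 47.7% in RT112 (27.4% and 20.2%) and 54.1% in TCCSUP (32.0% and 22.1%), so the 3 of 7 in 253J and TCCSUP and the 4 of 7 in RT112 are near the background. The median log2 fold change of the members was 0.10, -0.24, 0.25 and 0.20 in 253J, J82, RT112 and TCCSUP, against 0.10, 0.05, 0.12 and 0.20 over all genes. Treated and control libraries did not overlap for 4, 7, 5 and 5 members in the same order, which held for 73.0%, 62.7%, 74.3% and 78.5% of all genes. The effect differed between lines for 6 members, all but HDAC4, and for 51.9% of all genes. At the stricter rule of a log2 fold change past 2 and an adjusted p under 0.01, HDAC5 and HDAC7 in 253J, HDAC9 in RT112 and HDAC7 in TCCSUP were called, and none in J82. That rule called 12.9% of all genes in 253J (9.43% higher, 3.50% lower), 10.1% in J82 (8.81% and 1.24%), 12.8% in RT112 (11.4% and 1.39%) and 17.5% in TCCSUP (14.2% and 3.31%). When lines were compared in pairs, the effect differed in 0 of 6 pairs for HDAC4, 2 for HDAC6 and HDAC10, 4 for HDAC5, HDAC7 and HDAC11, and 5 for HDAC9. Over all genes 30.0% differed between 253J and J82, 30.0% between 253J and RT112, 28.6% between 253J and TCCSUP, 22.2% between J82 and RT112, 22.2% between J82 and TCCSUP and 27.5% between RT112 and TCCSUP. The control level differed in 1 of 6 pairs for HDAC7, 3 for HDAC6, 4 for HDAC5 and HDAC10, and 5 for HDAC4, HDAC9 and HDAC11. For control levels the share of all genes was 53.1% between 253J and J82, 54.3% between 253J and RT112, 53.1% between 253J and TCCSUP, 52.1% between J82 and RT112, 48.0% between J82 and TCCSUP and 51.5% between RT112 and TCCSUP.

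**Figure D2:**
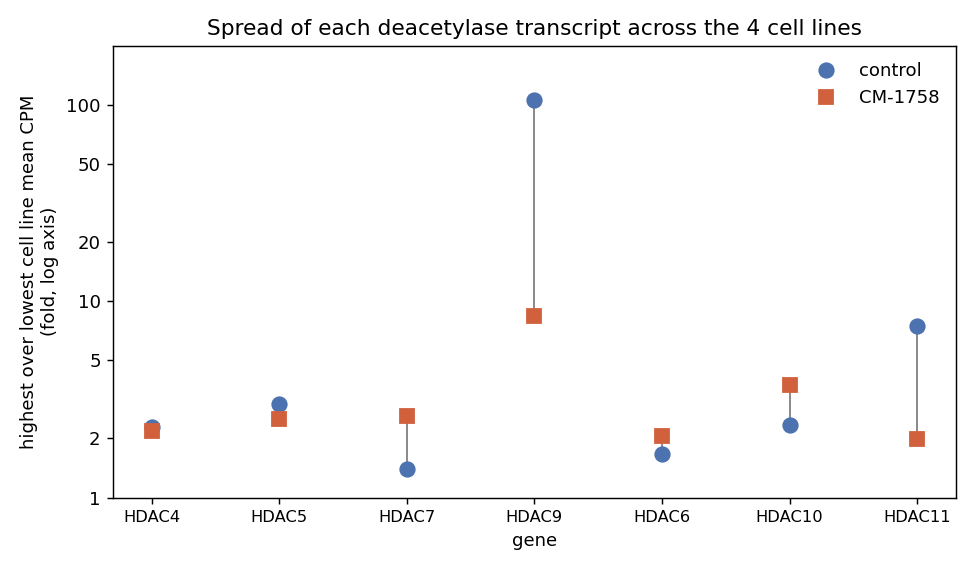
Highest over lowest cell line mean CPM of each gene, in control (circles) and with CM-1758 (squares), on a log axis. The span falls from 106-fold to 8.43-fold for HDAC9 and from 7.45-fold to 2.00-fold for HDAC11, and rises from 1.40-fold to 2.60-fold for HDAC7.

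The order of the deacetylase transcripts within a line also moved with treatment, mostly through HDAC5 and HDAC7. To compare genes, CPM was divided by length in kilobases, and a rank is given only where the union of GENCODE exons, the longest coding transcript and the median coding transcript all place the gene within it. In 253J controls HDAC6 ranked 1 of 7 and HDAC5 ranked 6. With CM-1758 HDAC6 kept rank 1, HDAC5 moved to rank 2 or 3, and HDAC7 moved from rank 2 or 3 to rank 6. In TCCSUP HDAC7 went from rank 1 or 2 to rank 6 or 7. In J82 HDAC6 and HDAC11 held ranks 1 and 2 in controls and shared ranks 1 to 3 with HDAC5 after treatment, while HDAC7 went from rank 3 to rank 4. In RT112 HDAC6 stayed at rank 1 or 2, and HDAC7 went from rank 1 to 3 to rank 4. HDAC9 ranked 7 in RT112 controls, at 0.047 CPM per kilobase of exon union against 10.6 for HDAC6, and 1 to 3 in TCCSUP controls. Across the 16 libraries, log2 CPM of HDAC5 and HDAC7 had a Pearson r of -0.858, the strongest relation among the 21 pairs of members, followed by HDAC9 and HDAC11 at -0.672. These 16 points share 4 cell lines and 2 treatments, so the values only describe the patterns above.

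Antisense transcripts named for 2 members were counted apart. HDAC4-AS1 held 0.145 to 1.07 CPM in controls and 0.537 to 3.01 with CM-1758. It rose in 253J (log2 fold change 1.29, SE 0.43, adjusted p = 0.0219) and TCCSUP (2.09, SE 0.46, adjusted p = 0.00137). Its estimates in J82 (1.22, SE 0.53, adjusted p = 0.079) and RT112 (0.94, SE 0.48, adjusted p = 0.124) were also above 0 but did not pass. HDAC11-AS1, which overlaps HDAC11 on the opposite strand, stayed at 0 to 21 reads per library and passed in no line (adjusted p from 0.298 to 0.804).

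Genes whose log2 CPM most resembled a member's over the 16 libraries, among 14209 genes searched, are given as a description, since all of them share the same libraries. For HDAC7 they were TMEM43 (r = 0.985), the mitotic kinesin KIF20A (r = 0.977) and ZFX (r = 0.973), each called lower in all 4 lines. For HDAC9 they were DLG4 (r = 0.969), AGPAT4 (r = 0.965) and STEAP2 (r = 0.962). STEAP2 rose in RT112 by 3.001 (adjusted p = 2.68e-06) and in J82 by 2.51 (adjusted p = 4.61e-06), and fell in 253J by 1.35 (adjusted p = 6.52e-05) and in TCCSUP by 0.55 (adjusted p = 0.0336). For HDAC11 they were ZNF285 (r = 0.969), PPP2R3B (r = 0.948) and KATNAL2 (r = 0.947), all called higher in 253J and TCCSUP and in no other line. The nearest gene to HDAC10 was the helicase gene RECQL5 (r = 0.988), followed by ABCC5 (r = 0.954) and the readthrough symbol ARHGAP27P1-BPTFP1-KPNA2P3 (r = 0.942). For HDAC5 they were LINC02154, KLHL7 and FAM200A (r = 0.944, 0.939 and 0.924). For HDAC4 they were LYPD3, CASZ1 and LCOR (r = 0.957, 0.956 and 0.954), and for HDAC6 CLASRP, PTRHD1 and RABGGTA (r = 0.924, 0.924 and 0.917).

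The counts of partner genes below are to be read against the shares of all genes called, which for 253J were 28.8% higher and 22.4% lower, for J82 24.0% and 18.5%, for RT112 27.4% and 20.2%, and for TCCSUP 32.0% and 22.1%. Of the 4 MEF2 factors, the partners of class IIa enzymes on DNA, 4 were called higher in 253J and 3 in each of J82, RT112 and TCCSUP, with none lower. MEF2D rose in every line, from 4.01 to 16.4 CPM in 253J (log2 fold change 2.03), 4.42 to 11.6 in J82 (1.40), 5.58 to 16.3 in RT112 (1.54) and 11.0 to 46.6 in TCCSUP (2.08), with adjusted p from 1.54e-05 to 0.00107. MEF2C rose by 1.13 in 253J, 2.88 in J82 and 3.47 in RT112, and in TCCSUP it went from 0 and 2 reads to 32 and 33. MEF2B stayed low: in 253J it went from 0 reads in both controls to 6 and 15, which is at least 3.56-fold higher on a floor of 3 counts per library. In J82 its control libraries held 1 and 21 reads and the treated ones 49 and 65. The median log2 fold change of the 4 was 1.58, 1.82, 2.51 and 1.37 in 253J, J82, RT112 and TCCSUP. With MEF2B at its bound where both controls were at 0, the median was 1.48 in 253J and 1.08 in RT112. MEF2A, named after its values were seen, was called in 253J (0.52), RT112 (0.57) and TCCSUP (0.34) and was at 0.30 in J82 (adjusted p = 0.0979).

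Of 6 genes known as MEF2 targets, RT112 had 6 higher, 253J 5, TCCSUP 4 and J82 2, the last of these near the share over all genes. J82 also had 1 lower, KLF4, which was named after its value was seen. Their median log2 fold changes were 2.65 in RT112, 2.44 in 253J, 1.69 in TCCSUP and 0.83 in J82. KLF2, a transcription factor of the vessel wall, was called in all 4 lines, from 1.20 in J82 to 4.85 in TCCSUP. PPARGC1A, the coactivator of mitochondrial genes, rose by 3.30 in 253J and 1.81 in TCCSUP, and in RT112 from 0 reads to 40 and 100, at least 26.9-fold. MMP10, a secreted protease, rose from 0.127 to 6.10 CPM in 253J and 2.40 to 7.27 in RT112. Its controls in TCCSUP and J82 had 0 reads, and the treated level was at least 9.04-fold and 2.46-fold higher there.

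**Figure D3:**
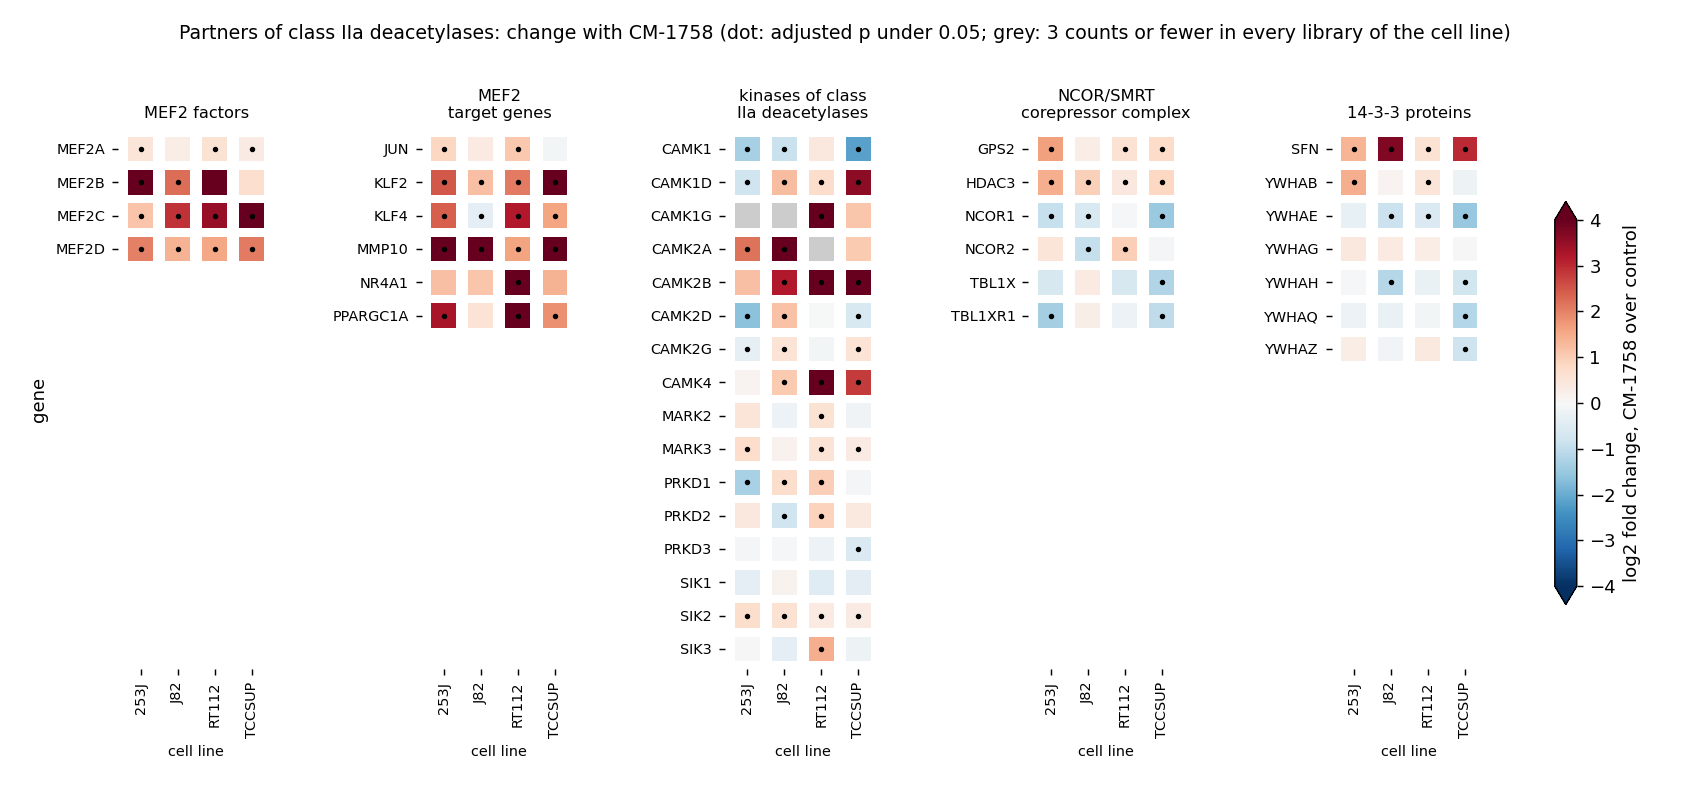
Log2 fold change with CM-1758 of the listed partners of class IIa deacetylases (rows) in each cell line (columns); colour saturates at 4 in either direction, a dot marks an adjusted p under 0.05 and grey a gene with 3 counts or fewer in every library of that line. Colours of genes at 0 in controls are fitted values and give no size. MEF2C, MEF2D, KLF2, MMP10, HDAC3, SFN and SIK2 carry dots and warm colours in all 4 lines, and KLF4 and CAMK1D carry 4 dots with 1 in the opposite direction.

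Of the 16 kinases that act on class IIa enzymes, 3 were called higher and 5 lower in 253J, 8 and 2 in J82, 10 and 0 in RT112, and 6 and 3 in TCCSUP. The counts in 253J and TCCSUP lay near the shares over all genes. Their medians were 0.01, 0.35, 0.66 and 0.34, and 0.25 in J82 with CAMK2A, at 0 reads in its controls, at its bound. CAMK4 rose in J82 from 17.1 to 35.3 CPM (log2 fold change 1.05, adjusted p = 0.009) and in TCCSUP from 0.214 to 1.52, and in RT112 it went from 0 and 3 reads to 38 and 53. CAMK2B rose in J82 from 0.186 to 1.75 CPM, and in RT112 it was at least 7.18-fold higher than its controls, which had 0 reads. CAMK2A rose in 253J from 0.952 to 4.35 CPM. SIK2, a kinase named after its values were seen, was called higher in all 4 lines. Of the 7 14-3-3 genes, 2 were higher and none lower in 253J, 1 and 2 in J82, 2 and 1 in RT112, and 1 and 4 in TCCSUP, with medians of 0.29, -0.15, 0.31 and -0.75. SFN (14-3-3 sigma) rose in all 4 lines, from 29.5 to 76.6 CPM in 253J, 52.8 to 81.5 in RT112 and 0.546 to 4.39 in TCCSUP, and in J82 from 2 and 3 reads to 31 and 42. YWHAE fell in J82 (-0.85), RT112 (-0.57) and TCCSUP (-1.51), and YWHAH in J82 (-1.14) and TCCSUP (-0.75).

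Of the 6 genes of the NCOR/SMRT complex, 2 were higher and 2 lower in 253J, 1 and 2 in J82, 3 and 0 in RT112, and 2 and 3 in TCCSUP. HDAC3, its catalytic subunit, rose in all 4 lines, by 1.44 in 253J, 0.94 in J82, 0.43 in RT112 (adjusted p = 0.0497) and 0.84 in TCCSUP, as did 6.69% of all genes tested. The scaffold NCOR1 fell in 253J (-0.92), J82 (-0.65) and TCCSUP (-1.47), and GPS2 rose in 253J (1.65), RT112 (0.61) and TCCSUP (0.76). Of the other class I enzymes, 2 were called, both in 253J, where HDAC1 rose by 0.67 (adjusted p = 0.0018) and HDAC8 by 0.75 (adjusted p = 0.00205). In J82, RT112 and TCCSUP the log2 fold changes of HDAC1 and HDAC8 lay between -0.32 and 0.17 and did not pass. HDAC2 was called in no line, with log2 fold changes from -0.25 in TCCSUP to 0.43 in J82 (adjusted p = 0.0551).

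For HDAC6, 11 substrates and partners were listed, of which 3 were higher and 4 lower in 253J, 3 and 5 in J82, 2 and 4 in RT112, and 1 and 5 in TCCSUP. Their medians were -0.20, -0.29, -0.23 and -0.40. TUBA1B, a main alpha-tubulin gene, fell in all 4 lines, by -2.39, -1.72, -1.33 and -2.00 in 253J, J82, RT112 and TCCSUP, and TUBA1C by -1.45, -1.17, -0.58 and -1.46. TUBA1A, named after its values were seen, rose in J82 (1.05) and RT112 (2.33) and fell in TCCSUP (-0.55). Alpha-tubulin genes are near-identical in sequence, so reads between them may be split. SQSTM1, an autophagy receptor that like HDAC6 binds ubiquitin, rose by 3.14 in 253J, 1.06 in RT112 and 0.92 in TCCSUP and was at -0.22 (adjusted p = 0.398) in J82.

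For HDAC10, 12 polyamine genes were listed, with 6 higher and 2 lower in 253J, 5 and 2 in J82, 4 and 1 in RT112, and 3 and 4 in TCCSUP. SAT1, which acetylates spermidine and spermine, rose in all 4 lines by 1.34 to 2.09, and ODC1, which makes putrescine, by 1.08 to 2.36. SRM, the spermidine synthase, fell in all 4 by -1.27 to -0.72 (adjusted p from 0.000599 to 0.0237). For HDAC11, 7 genes were listed: SHMT2, subunits of the complex it joins and the N-myristoyltransferases. Of these, 3 were higher and 2 lower in 253J, 2 and 2 in J82, 2 and 1 in RT112, and 0 and 3 in TCCSUP. SHMT2 fell in all 4 lines by -1.82 to -0.79. NMT2 rose in 253J (1.58), J82 (0.87) and RT112 (1.92) and fell in TCCSUP (-1.05), and NMT1 fell in 253J (-0.68) and J82 (-0.77).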

How the data were processed

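RNA-seq was run on 16 libraries of 4 cell lines, control or CM-1758, with 2 independent biological replicates per group according to the study, so p-values measure the spread between these. Libraries were stranded total RNA depleted of ribosomal RNA. The authors deposited raw counts, whole numbers per gene symbol with no normalization. Processing notes of the submitters name HISAT2, StringTie and GRCh37, and the counting rule and strand setting are not given in the sources used here. The members and lists were chosen with earlier results of these data known.

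Counts were filtered with filterByExpr (21297 of 35993 genes left), TMM-normalized and fitted over all 8 groups with the quasi-likelihood test of edgeR 4.0.16 in R 4.3.3. P-values were adjusted by Benjamini-Hochberg over all genes tested, per contrast. Each SE was obtained as the size of the change over the root of its F statistic. Log2 CPM used a prior count of 2. Named beside the members are up to 3 genes per list, those with the largest mean change among genes called in at least 2 lines, the 4 class I genes, and the 3 genes most correlated with each member. Other genes are named where a marker is absent or where the text says that their values were seen first. In simulated counts with 200 genes changed 2-fold, 147 to 162 were called per line in the right direction, and 7 to 11 others. The changed genes were drawn from those above a minimum level in the controls of every line, which HDAC9 in RT112 did not reach. Far fewer genes changed than the 42.5% to 54.1% called in the data. These rates therefore do not measure recovery in the data. Alternatives were RLE, library size alone, DESeq2 1.42.0, each line alone, other filters, 7 abundant small RNA genes left out, a stricter call rule, a replicate block and each library left out. Lengths and overlaps are from GENCODE v29 (GRCh38), and promoters from RefSeq.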

Additional observations from a re-analysis of the deposited data

Results flagged for a closer look

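The effect of CM-1758 differed between the 4 cell lines, by the quasi-likelihood F test of the difference in edgeR, for 6 of the 7 genes (51.9% of all genes tested). The adjusted p was 2.16e-07 for HDAC9, with log2 fold changes from 0.08 to 4.35, and 8.96e-05 for HDAC11, from -0.24 to 1.71. It was 0.000518 for HDAC5, from 0.54 to 2.90, and 0.00272 for HDAC7, from -2.42 to -1.38. It was 0.00436 for HDAC6, from -0.74 to 0.10, and 0.0495 for HDAC10, from -0.76 to 0.17. For the first 5 the difference passed under all 23 alternatives. For HDAC10 it was lost under 16 of the 23, among them 14 of the 16 that left out 1 library. The dose was the IC50 of each line, so line and dose cannot be told apart.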

How the results depend on the processing

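With 2 libraries per group the test borrows the spread across genes, and a lone library left in a group is assumed to vary like the others. Of 364 effect values under the alternatives, 326 kept their direction and side of the threshold, 10 lost a call, 17 gained one and 11 changed sign, and 15 of 28 effects were the same throughout, HDAC7 in all 4 lines among them. Library size alone raised the median over all genes by 0.27, 0.15, 0.15 and 0.31 in 253J, J82, RT112 and TCCSUP and gave 5 members called in 253J and 5 in TCCSUP. Fitting TCCSUP alone also gave 5. The stricter rule gave 0 in J82, 1 in RT112 and 1 in TCCSUP. Leaving out 1 library gave 3 to 4 called in 253J, 5 to 6 in J82, 4 in RT112 and 2 to 3 in TCCSUP. The cause was not tested for these.

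Every change of sign was in an effect that was not called. HDAC10 in 253J turned to 0.00966 under RLE normalization, 0.237 under library size alone, 0.0465 with at least 10 counts in every library and 0.00979 in DESeq2 with all groups, and ranged from -0.163 to 0.109 when 1 library was left out. On leaving out 1 library HDAC10 in RT112 ranged from -0.0217 to 0.251, HDAC11 in RT112 from -0.00323 to 0.459 and HDAC9 in TCCSUP from -0.00386 to 0.384. HDAC6 in TCCSUP was 0.0582 under library size alone. HDAC4 was called in 253J under library size alone, at least 10 counts, DESeq2 with all groups and without control replicate 3 (adjusted p from 0.00703 to 0.0456). In RT112 it was called under RLE, library size alone, at least 10 counts, RT112 fitted alone in edgeR and DESeq2 with all groups (0.0166 to 0.0396). Calls of HDAC4 and HDAC10 in J82 were lost when J82 was fitted alone in edgeR (adjusted p = 0.0795 and 0.0825) or in DESeq2 (0.0982 and 0.147).

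Replicate numbers were shared between treatments, and deviations of same-numbered libraries correlated at 0.409 (J82), 0.107 (RT112) and 0.0607 (TCCSUP), with 1 shared number in 253J. The main fit does not pair samples by number because the methods name no pairing. Whether same-numbered libraries share an experiment was not tested. With the replicate number as a block, HDAC9 in 253J was -0.0114 and HDAC5 in TCCSUP was called (0.54, adjusted p = 0.0406). In 253J only replicate 3 is in both treatments, so every block estimate for that line rests on 1 control and 1 treated library. There the block gave 0.112 for HDAC4 (0.381 in the main fit), 2.50 for HDAC5 (2.90) and -2.52 for HDAC7 (-2.42).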
